A study of Mus musculus with 9 samples.

Results

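Tibialis anterior muscle of mice that lacked either of 2 proteins of the mitochondrial calcium uniporter was compared, as 1 pooled set, with muscle of control mice, to find the transcripts that differ from control in both lines and do not differ between the lines. The pooled set held the 6 arrays labelled MCU knockout (genotype MCU-/-/MCUb+/+, 3 arrays) or MCUb knockout (MCU+/+/MCUb-/-, 3 arrays), and the comparison group held the 3 control arrays (MCU+/+/MCUb+/+). Together these are all 9 arrays of the series. All mice were 2 months old and on the C57/BL6 background, and no array carried a treatment or any other allele per the labels. The labels do not say whether the deletions were made in the whole animal or in muscle alone, and give no sex, litter or harvest time. Nor do they state that each sample is its own animal, so every p-value below measures only the spread between samples, which may in part be technical.

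The uniporter is the channel of the inner mitochondrial membrane that lets calcium into the matrix. MCU forms its pore, MCUb is a paralogue of MCU that can join the same complex, and matrix calcium activates dehydrogenases that feed the respiratory chain. In muscle this links the calcium released at each contraction to the supply of ATP. The study's title concerns MCUb and oxidative phosphorylation, and tibialis anterior, in the lower leg, is made mostly of fast-twitch fibres.

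Expression was read on Affymetrix Clariom S arrays as 1 log2 level per probe set and array, and 22206 probe sets were tested. Between 45.3% and 45.9% of all probe sets on an array lay above its background limit, which was 5.87 to 5.92 on the log2 scale. All 10 skeletal muscle fibre markers were above it on all arrays, and 2 of 9 lymphocyte markers were above it on any array. Control replicate 3 stood apart from the other arrays, at -70.8 on a first principal component that held 28.1% of the variance and on which the remaining 8 arrays lay between -20.3 and 21.9. Uty and Kdm5d, both Y-linked, had a mean level of 7.24 to 7.80 on 3 knockout arrays (MCU knockout replicates 2 and 3, MCUb knockout replicate 1) and 3.01 to 3.89 on the remaining 6, which include all 3 controls. The number of arrays limits the precision: the median standard error (SE) of the pooled log2 difference was 0.199.

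Mcu, the deleted pore gene, was read first because it checks the labels. Its log2 level was 10.38, 10.96 and 10.46 on the control arrays, 6.80, 6.98 and 7.06 on the MCU knockout arrays, and 10.71, 11.06 and 10.81 on the MCUb knockout arrays. All MCU knockout arrays were thus low, and the MCUb knockout arrays overlapped with control. The change in the MCU knockout was -3.65 with an adjusted p of 3.47e-05 (limma, Benjamini-Hochberg), and the exact two-sided permutation test gave 0.1, the smallest value that 3 arrays against 3 allow. The labels of the MCUb knockout were not checked in this way, since Mcub was not analysed here.

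Few transcripts passed the pooled test. Averaged over both lines, 3 of 22206 probe sets passed an adjusted p of 0.05 (0.0135%): Ska2 and Serpina3n were higher in the knockouts (0.00901%) and Mcu was lower (0.0045%). Ska2 was the only one of the 3 that changed alike in both lines. "Alike" here means that all 6 knockout arrays lay on 1 side of all 3 controls and that the lines differed by less than 50% of the pooled change. At an unadjusted p of 0.05 the count was 2386, or 10.7%, with 1109 higher (4.99%) and 1277 lower (5.75%).

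The count depended on single arrays. Without control replicate 2 it was 188, of which 102 were higher and 86 lower. Of the 188, 158 met the rule for alike when it was applied to the remaining controls only. Just 46 of the 188 were clear of all 3 controls. The count was 0 without control replicate 1, MCU knockout replicate 1, MCU knockout replicate 2 or MCUb knockout replicate 1. It was 1 without MCUb knockout replicate 3, and it was 5 without control replicate 3. It was also 0 in a fit that joined the 6 knockout arrays into 1 group, so that the spread between the lines counted as error.

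Without any p-value, the 6 knockout arrays lay clear of the 3 controls for 917 probe sets (4.13%), 422 higher (1.9%) and 495 lower (2.23%). Of these, 770 met both conditions of the rule for alike (3.47%). The set used below for description was cut further, after the values were seen, to a pooled difference of at least 2-fold with signal above background on at least 2 control or 4 knockout arrays. That left 44 probe sets (0.198%), 17 higher (0.0766%) and 27 lower (0.122%), with sizes from 1 to 2.45 on the log2 scale. The probe set just outside the limit had a size of 0.99. Direct tests between the lines called 35 probe sets (0.158%), 21 higher (0.0946%) and 14 lower (0.063%) in the MCUb knockout. The set of 44 holds 0 of them, which its limit on the difference between the lines makes likely by itself.

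**Figure D1:**
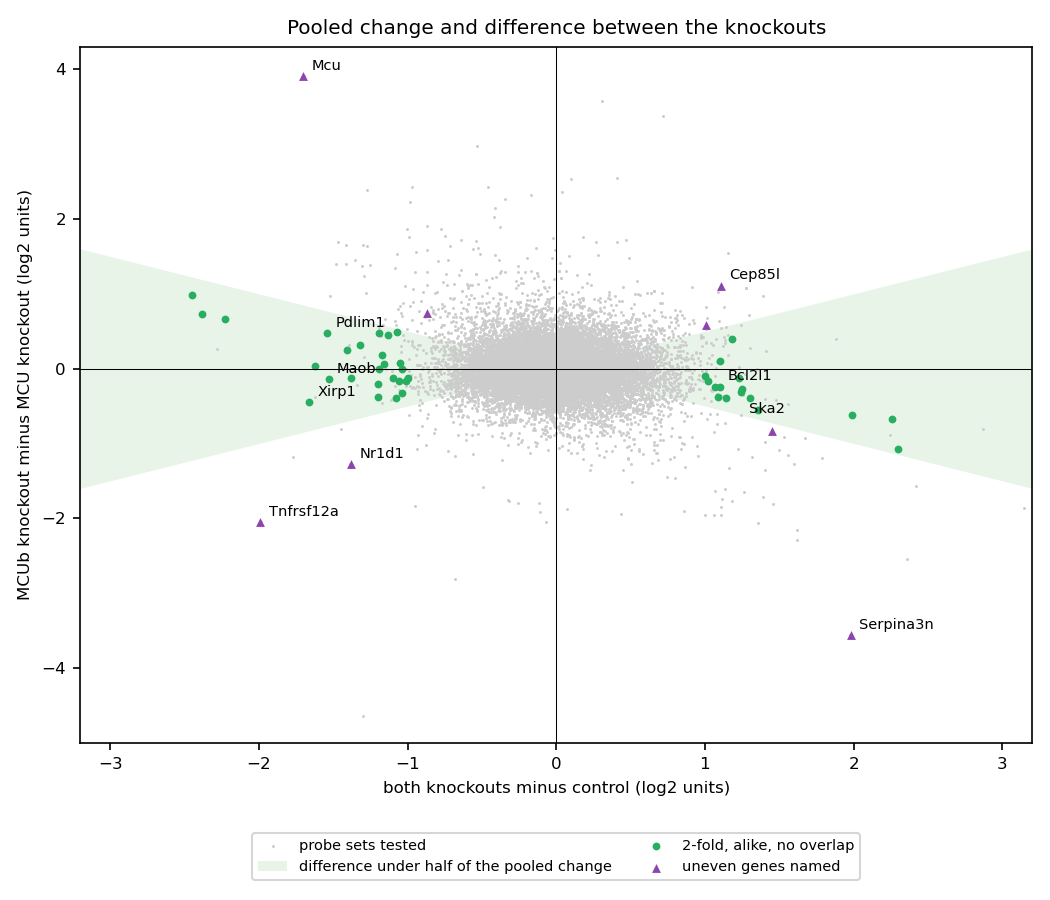
Each grey point is 1 of the 22206 probe sets, placed by its pooled knockout minus control difference (x axis, log2 units) and by its MCUb minus MCU knockout difference (y axis, log2 units). The shaded wedge holds differences between the lines of less than 50% of the pooled change, green circles are the named genes among the 44 alike 2-fold probe sets, and purple triangles are the uneven genes named in the text, with Mcu at -1.70 and 3.91.

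Ska2 codes for a subunit of the spindle and kinetochore associated complex, which couples chromosomes to microtubules in mitosis. Its level was 5.26, 5.10 and 5.05 on the control arrays, 6.53, 6.67 and 6.39 on the MCU knockout arrays, and 6.17, 6.24 and 6.25 on the MCUb knockout arrays. The lowest knockout array thus lay 0.92 above the highest control. Ska2 rose by 1.24 (SE 0.14) on the log2 scale, with an adjusted p of 0.0221. Because no control array was above background, the fold is a bound of at least 1.39.

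The separate changes of Ska2, which share the control arrays, were 1.39 in the MCU knockout and 1.08 in the MCUb knockout. The lines differed by -0.31, with a 95% interval from -0.67 to 0.05. The pooled change kept its size, 1.20 to 1.30, when any 1 array was left out, but its adjusted p stayed under 0.05 in 6 of 18 alternatives and ranged from 0.0206 to 0.664. Leaving out any array other than control replicate 2 ended the call.

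The promoter of Ska2, the gene that changed alike in both lines, is given from the RefSeq table of GRCm38.p6 at chr11:87109011-87109310 on the plus strand. It runs from 250 bases before the annotated start to 50 after it, with the letters CCAAT in capitals.

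Ska2 promoter: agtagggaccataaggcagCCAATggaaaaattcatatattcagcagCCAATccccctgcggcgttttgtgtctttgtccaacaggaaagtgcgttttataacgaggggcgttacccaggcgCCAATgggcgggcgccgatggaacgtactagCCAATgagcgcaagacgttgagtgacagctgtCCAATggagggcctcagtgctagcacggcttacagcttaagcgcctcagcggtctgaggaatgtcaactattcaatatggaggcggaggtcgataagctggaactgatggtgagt

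The CCAAT box, a common promoter element, was searched as CCAAT on both strands. It occurred 5 times in this window, first bases at -231, -203, -128, -97 and -65 from the start, all on the strand shown. Of 32851 promoters of the same length, 37.4% held the letters at least once and 89 (0.271%) held them at least 5 times. A match describes the sequence and shows no binding.

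Pdlim1, which codes for a PDZ and LIM domain protein that binds alpha-actinin, had the smallest p among the alike genes with lower values. It read 12.77, 12.55 and 12.78 on the controls, 11.13, 10.52 and 11.13 in the MCU knockout, and 11.06, 11.90 and 11.24 in the MCUb knockout. The highest knockout array lay 0.66 below the lowest control. The pooled difference was -1.54 (SE 0.22), 2.91-fold lower, with an adjusted p of 0.0663 that did not pass the threshold. It passed in 3 of 18 alternatives, within a range from 0.0225 to 0.764. The MCU knockout differed from control by -1.78 and the MCUb knockout by -1.30, and the interval of the difference between the lines was -0.08 to 1.03.

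Its promoter, shown beside that of Ska2 because Pdlim1 is the bright transcript nearest to a call in the other direction, lies at chr19:40271567-40271866 on the minus strand of the same build.

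Pdlim1 promoter: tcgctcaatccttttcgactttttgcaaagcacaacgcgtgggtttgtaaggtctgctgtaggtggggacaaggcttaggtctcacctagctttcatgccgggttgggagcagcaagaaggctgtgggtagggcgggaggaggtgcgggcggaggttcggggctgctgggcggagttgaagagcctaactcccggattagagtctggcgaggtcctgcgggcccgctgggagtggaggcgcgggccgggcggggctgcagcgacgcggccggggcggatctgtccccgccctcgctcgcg

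This window had no match to CCAAT, to the MEF2 site or to the CArG box on either strand, the last 2 being elements bound by muscle transcription factors, so it is printed without capitals. Those 2 motifs occurred in 3.2% and 1.6% of the same promoters. The absence of these letters says nothing about the factors.

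A rule on the smallest p-values named 17 further genes whose 6 knockout arrays did not overlap with control. None of the 17 passed the adjusted threshold, so only their values are given, and 12 of the 20 genes named in all were alike in both lines. Because whole muscle was used, fewer cells of a type and less RNA per cell cannot be told apart for any of them. Their adjusted p-values ran from 0.0663 to 0.148.

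Xirp1, like Pdlim1, codes for a protein of the actin cytoskeleton, found where myofibrils attach in striated muscle. Controls read 11.66, 11.77 and 10.50, MCU knockout arrays 9.97, 9.91 and 9.76, and MCUb knockout arrays 9.10, 9.40 and 9.78. The pooled difference was -1.66 (SE 0.27), 3.15-fold lower, with an adjusted p of 0.081. Control replicate 3, the array that stood apart, was the lowest control for this gene. Without it the difference was -2.06 and passed the threshold at an adjusted p of 0.0228, within a range over alternatives from 0.0228 to 0.846.

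Entpd1 and Maob code for enzymes that break down signalling molecules: extracellular ATP and ADP for Entpd1, amines for the outer-membrane mitochondrial oxidase Maob. Entpd1 read 9.22, 8.72 and 9.40 on the controls and 7.35 to 8.04 on the knockout arrays, a pooled difference of -1.41 (SE 0.21). Maob read 8.34, 8.04 and 8.76 on the controls and 6.50 to 7.29 on the knockout arrays, a pooled difference of -1.53 (SE 0.23). For Entpd1 the lines stood at -1.54 (MCU) and -1.29 (MCUb), and for Maob at -1.47 and -1.60. Both genes thus had gaps between the groups, 0.68 and 0.75, that were wider than the difference between the lines.

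Bcl2l1 and Cflar code for proteins that restrain cell death, Bcl2l1 at mitochondria and Cflar at death receptors. They stood on opposite sides of control. Bcl2l1 read 6.42, 6.75 and 6.08 on the controls, 7.57, 7.56 and 7.75 in the MCU knockout and 7.35, 7.61 and 7.21 in the MCUb knockout, a pooled difference of 1.10 (SE 0.18, adjusted p 0.081). Cflar, named after its values were seen, read 9.91, 9.61 and 10.48 on the controls and 8.34 to 9.20 on the knockout arrays. Its pooled difference was -1.19 (SE 0.23, adjusted p 0.168), and each line alone gave -1.19.

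Nfkbiz, a nuclear regulator of NF-kB target genes, read 5.72, 5.83 and 5.97 on the controls and 4.47 to 4.98 on the knockout arrays. Only 1 control array and no knockout array was above background, so no fold is given for its difference of -1.11 (SE 0.17). Pias4, a ligase for the small modifier SUMO, read 7.47, 7.32 and 8.33 on the controls and 6.17 to 6.91 on the knockout arrays, a difference of -1.20 (SE 0.22). Otulin, which trims linear ubiquitin chains, and Stat3, a transcription factor downstream of interleukin-6 receptors, were named after their values were seen. Otulin read 9.06, 9.06 and 8.54 against 7.42 to 8.28, a difference of -1.05 (SE 0.23). Stat3 read 11.99, 11.56 and 11.62 against 10.48 to 11.04, a difference of -0.93 (SE 0.19), and its 3 lowest arrays were the 3 of high Y-linked level, without which the difference was -0.76.

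Ms4a7, a membrane protein gene typical of macrophages, read 5.93, 6.26 and 5.81 on the controls, 6.98, 8.06 and 7.43 in the MCU knockout and 6.92, 6.96 and 7.43 in the MCUb knockout. The pooled difference was 1.30 (SE 0.24, adjusted p 0.127). Macrophage and neutrophil markers, 10 of 12 of which were above background on some array, had a mean level of 6.03 to 6.86 on the controls and 6.13 to 6.83 on the knockout arrays. Of the 12 markers 8 were higher and 4 lower, with a median of 0.16 and a mean of -0.01. The bright macrophage marker Mrc1 read 11.91, 11.43 and 11.15 on the controls and 9.21 to 11.57 on the knockout arrays. Its 3 lowest arrays were the 3 of high Y-linked level, without which its difference was -0.21 rather than -1.03. The part of these cells in the difference of Ms4a7 was not tested.

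The remaining alike genes named by that rule had lower values in the knockouts. Slc26a10, of a family of anion exchangers, read 8.54, 8.27 and 7.60 on the controls and 6.37 to 7.21 on the knockout arrays (difference -1.38, SE 0.24). Trib2, a pseudokinase, read 9.94, 9.58 and 9.35 against 8.55 to 8.85 (difference -0.91, SE 0.17), with -0.94 in the MCU and -0.89 in the MCUb knockout. Proser1 read 11.01, 11.14 and 10.76 against 9.74 to 10.21 (difference -0.87, SE 0.16). Its 3 MCUb knockout arrays read 10.21, 10.20 and 10.20.

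**Figure D2:**
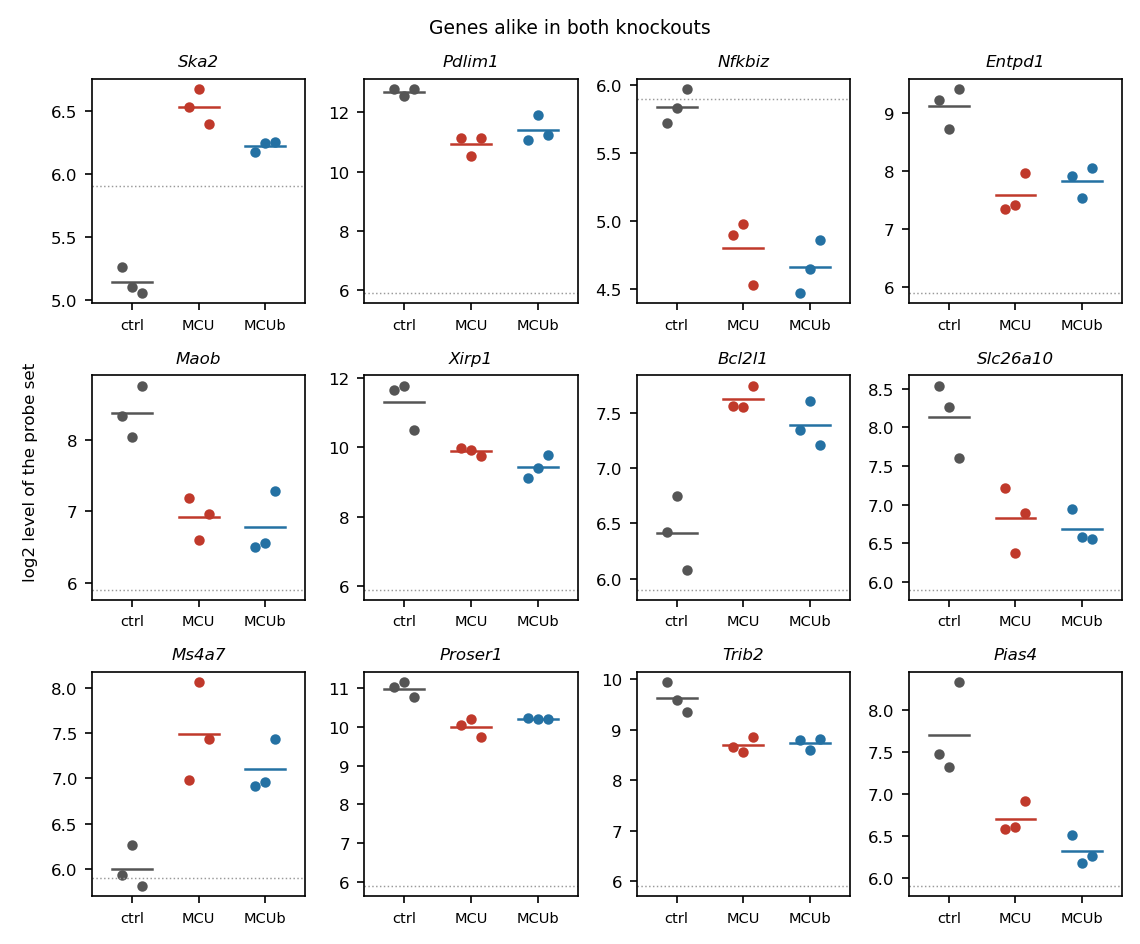
Log2 level (y axis) on every array of the 12 genes named by the rule that were alike in both knockouts; points are single arrays, horizontal lines group means, and the dotted line a background limit. In each panel the 6 knockout arrays lie on 1 side of the 3 controls, and of the 12 genes only Ska2 passed the adjusted threshold.

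The 44 probe sets that were alike, clear of control and at least 2-fold different comprised 42 named genes and 2 probe sets without a name. Of the 44, 35 were above background on all 9 arrays. The 95% interval of the difference between the lines lay inside the size of the pooled difference for 31 and inside 50% of it for 2, so for most the arrays do not bound the lines to near equality. The sizes also rest on the controls: 36, 43 and 27 of the 44 stayed at least 2-fold without control replicate 1, 2 or 3. Their pooled adjusted p-values reached 0.44.

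Among genes with higher values, Gadd45g, induced by cellular stress, read 10.56, 10.37 and 11.62 on the controls and 11.79 to 12.98 on the knockout arrays (difference 1.36, SE 0.28). Cd59a, a membrane inhibitor of complement, read 10.59, 10.16 and 10.47 against 11.06 to 12.19 (difference 1.25, SE 0.28). Msrb2, a mitochondrial enzyme that repairs oxidised methionine, read 8.96, 10.02 and 8.59 against 10.09 to 10.64 (difference 1.23, SE 0.28). The knockout arrays of Msrb2 were close together, and control replicate 2 came within 0.06 of them. Zfp992, a zinc finger gene, had a larger difference of 1.99 (SE 0.48), with controls of 7.07, 6.75 and 5.05 and knockout arrays of 7.36 to 9.37. The phosphodiesterase gene Pde7a (1.18, SE 0.32) and the Rab regulator Dennd4a (1.10, SE 0.25) were also in the set.

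Among genes with lower values, Acss1, which makes acetyl-CoA from acetate in mitochondria, read 9.65, 9.69 and 11.10 on the controls and 6.95 to 9.51 on the knockout arrays. The difference was -1.62 (SE 0.52), and the spread within each group was wide. Pde10a, another phosphodiesterase, read 8.90, 9.22 and 8.69 against 7.02 to 8.38 (difference -1.32, SE 0.30), so that Pde7a and Pde10a stood on opposite sides of control. Pik3r2, a regulatory subunit of phosphoinositide 3-kinase, differed by -1.17 (SE 0.26), and Cyp51, an enzyme of sterol synthesis, by -1.06 (SE 0.27). Control replicate 2 was the lowest control for both, at 7.63 and 6.26. Sfxn5, of a family of mitochondrial carriers, differed by -1.08 (SE 0.37), with its lowest value, 6.13, on MCUb knockout replicate 2.

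**Figure D3:**
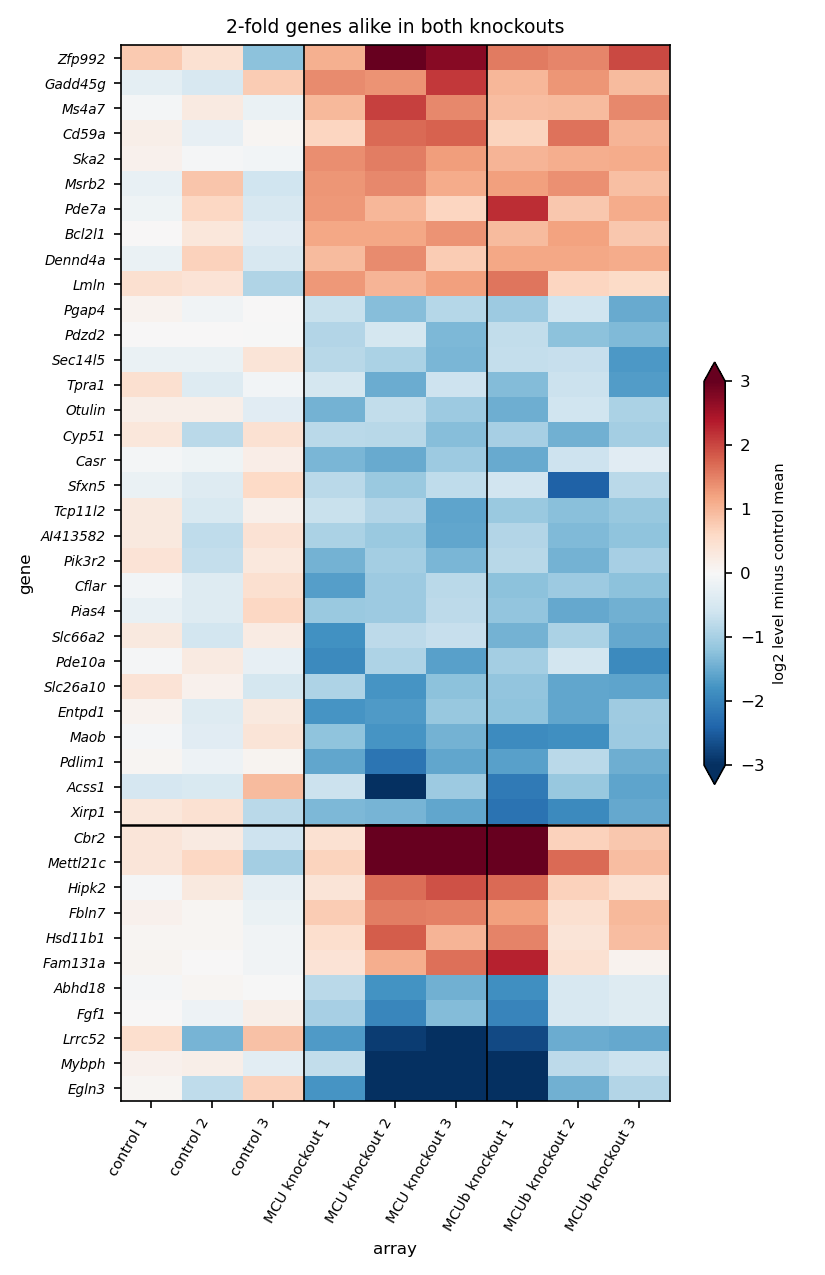
Colour gives the log2 level of each array minus the mean of the 3 controls (values beyond 3 take the end colour) for the 42 named genes of the alike 2-fold set, 1 row per gene and 1 column per array. Below the horizontal line are the 11 genes whose 3 arrays of high Y-linked level lie apart from the remaining 6. Above it are the genes in which those 3 arrays overlap with the remaining 6.

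Within the set of 44, 11 genes (0.0495% of all probe sets) had their most extreme values on the 3 knockout arrays of high Y-linked level, with no overlap with the remaining 6 arrays. Over all 22206 probe sets, 792 (3.57%) separated those 3 arrays from the rest, a smaller share than 11 of 44. The rules that chose the 44 make such a separation more likely by themselves, so these shares are not like for like. Whether they differ beyond that was not tested. Cbr2, a carbonyl reductase gene, read 7.88, 7.79 and 6.90 on the controls, 11.53, 11.58 and 11.34 on the 3 arrays of high Y-linked level, and 7.98, 8.20 and 8.33 on the remaining knockout arrays. Mybph, a myosin-binding protein gene, read 13.87, 13.90 and 13.41, then 10.05, 9.90 and 9.11, and then 12.99, 12.94 and 13.09 in the same order. For both, the knockout arrays of low Y-linked level lay near control while those of high level did not.

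Egln3, a prolyl hydroxylase that acts on hypoxia-inducible factors, averaged 12.03 on the controls, 10.66 on the knockout arrays of low and 8.50 on those of high Y-linked level. Mettl21c, a lysine methyltransferase gene of muscle, averaged 7.75, 8.84 and 11.16 in that order, and Lrrc52, an accessory subunit of potassium channels, 7.31, 5.73 and 4.41. Hsd11b1, which regenerates active glucocorticoid, averaged 7.05, 7.65 and 8.49. The kinase gene Hipk2 averaged 12.99, 13.50 and 14.75, and the matrix protein gene Fbln7 6.42, 7.16 and 7.85. Lrrc52 was not above background on any knockout array, so its values there have no order. In the remaining genes named here the low-level knockout arrays stood between the controls and the high-level ones. The rules that picked these genes allow no other order, so it is not a result. Both lines contribute to the 3 arrays of high level, and no control array has one. Differences that go with the Y-linked level and those that go with the knockouts thus cannot be fully told apart in the pooled comparison. The same holds for sex, which the labels do not give.

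On the 6 arrays of low Y-linked level alone the pooled difference of Cbr2 was 0.59, against 2.30 on all 9, and that of Mybph was -0.72 against -2.38. Egln3 stood at -1.47 against -2.45, Mettl21c at 0.99 against 2.26 and Hipk2 at 0.48 against 1.14. Hsd11b1 stood at 0.58 against 1.02, and Fbln7 at 0.75 against 1.09. Each kept its sign and was smaller without those arrays, which the choice of these genes fixes in advance. All their knockout arrays are clear of control, and the arrays left out are the most extreme, so only the sizes are informative. None of these values passed the threshold.

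Pooling also gave a difference where 1 line supplied most of it. Serpina3n, a secreted inhibitor of serine proteases, read 4.14, 4.20 and 4.02 on the controls, 7.71, 8.16 and 7.77 in the MCU knockout and 4.32, 3.87 and 4.76 in the MCUb knockout. The MCU knockout arrays alone were above background, and the MCUb knockout arrays overlapped with control. The pooled value rose by 1.98 (SE 0.20, adjusted p 0.0114), a bound of at least 1.15-fold, and the lines differed by -3.56 with an interval from -4.08 to -3.04. The call held in 10 of 18 alternatives, with adjusted p-values from 0.00798 to 0.615. Mcu likewise passed the pooled test, at -1.70 (SE 0.18, adjusted p 0.0114), through 1 line, and held in 9 of 18 alternatives, from 0.00798 to 0.615.

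Tnfrsf12a, the receptor of the cytokine TWEAK, was lower in both lines but unevenly. It read 14.62, 14.25 and 13.36 on the controls, 13.20, 12.80 and 13.33 in the MCU knockout and 10.81, 11.63 and 10.75 in the MCUb knockout. The pooled difference was -1.99 (SE 0.29), with an adjusted p of 0.0663. The gap between the groups was 0.03, between control replicate 3 and MCU knockout replicate 3, while the lines differed by -2.05 (interval -2.78 to -1.31, adjusted p 0.0489). Without control replicate 3 the pooled difference was -2.35 and passed at an adjusted p of 0.0344, within a range from 0.0203 to 0.764.

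Nr1d1, the clock repressor REV-ERB alpha, had the same order of groups. Controls read 13.75, 13.33 and 14.13, MCU knockout arrays 13.18, 12.68 and 13.11, and MCUb knockout arrays 12.17, 11.43 and 11.53. The differences from control were -0.75 and -2.02, and the interval between the lines was -1.86 to -0.69. Cep85l, a centrosomal protein gene, read 8.89, 9.04 and 8.79, then 9.70, 9.51 and 9.18, and then 10.47, 10.78 and 10.48, so that it too was farther from control in the MCUb knockout. Clcn3, a chloride and proton exchanger of endosomes, differed from control by 0.72 and 1.30 in the same order of lines.

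In Fam205a2 the MCU knockout was farther from control, at 1.87 against 1.04. Its pooled difference was 1.45 on the probe set read. Over the alternatives, which for this gene include the mean of its probe sets, that difference ran from 0.65 to 1.72. With 1 array left out it ran from 1.14 to 1.72. The hormone gene Gnrh1 was above background on 2 controls and no knockout array, so its lines have no order. In all, 13 probe sets were clear of control and at least 2-fold different but uneven (0.0585%), 7 higher (0.0315%) and 6 lower (0.027%). Of the 35 called between the lines, 2 were clear of control in the pooled comparison, beside 917 of all 22206 probe sets (4.13%). A few more genes, chosen after their values were seen, had p-values as small as these but overlapped with control. Dynlt1b differed by 2.39 in the MCU and 0.33 in the MCUb knockout, Snx9 by 2.04 and 0.18, and Adh1 by 0.38 and 1.93.

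**Figure D4:**
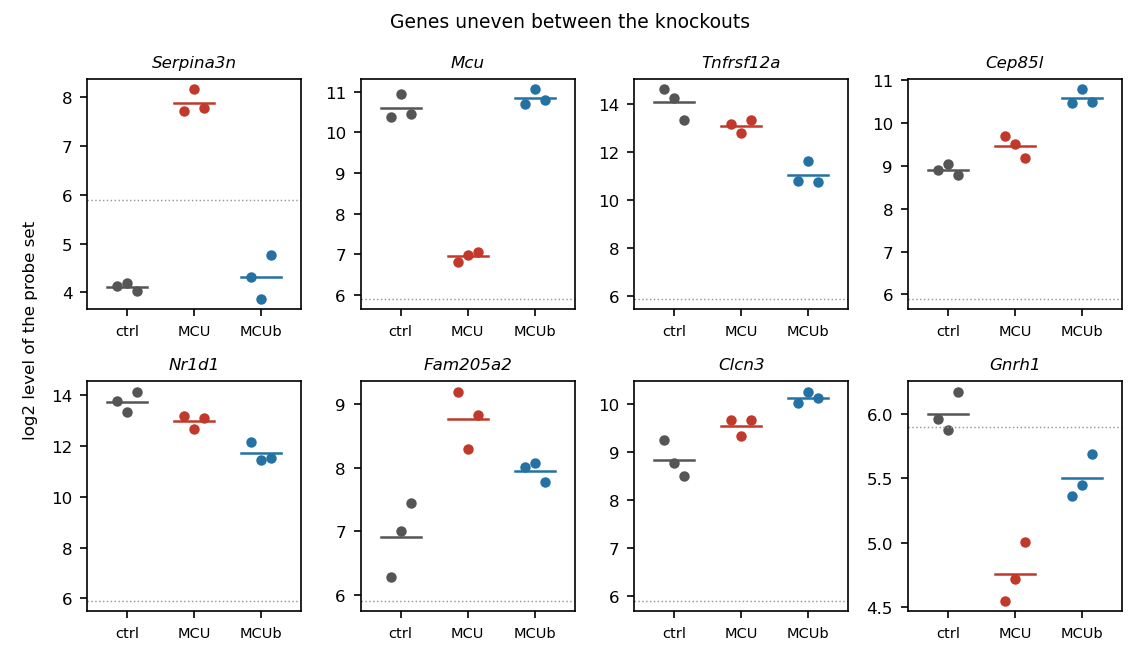
Log2 level (y axis) on every array of the 8 named genes that were uneven between the knockouts; points are single arrays, horizontal lines group means, and the dotted line a background limit. Serpina3n and Mcu depart from control in the MCU knockout, and Tnfrsf12a, Nr1d1, Cep85l and Clcn3 are farther from control in the MCUb knockout.

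Lists of genes were read by counts and medians. Over all probe sets the median pooled difference was -0.02, and 46.4% were higher in the knockouts. Of the 41 lists, only the list of the uniporter and mitochondrial calcium transport had a member past the threshold, which was Mcu. Of its 13 measured members 9 were higher and 4 lower, with a median of 0.02. Besides Mcu, the smallest p-values belonged to the outer-membrane channel gene Vdac2, at 0.34 (SE 0.18), and to the uniporter gatekeeper gene Micu2, at 0.67 (SE 0.38), and neither passed.

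Genes of oxidative phosphorylation lay near the median of all probe sets. Of 35 complex I subunits 14 were higher and 21 lower (median -0.09), and of 42 subunits of complexes II to V 14 were higher and 28 lower (median -0.06). At an unadjusted p of 0.05, 11.4% and 7.14% of them were counted, beside 10.7% of all probe sets. Ndufa3 had the smallest p among complex I genes, with -1.05 in the MCU and -0.13 in the MCUb knockout. Ndufab1 (0.64, SE 0.25) and Cox7a2 (0.72, SE 0.25) had similar values in both lines, but control replicate 2 overlapped with the knockouts for both. For the citrate cycle with pyruvate dehydrogenase the median was 0.04. The smallest p there was that of Pdp1, the phosphatase that activates pyruvate dehydrogenase and is itself stimulated by calcium. Pdp1 read 12.95, 12.32 and 13.15 on the controls and 12.97 to 13.93 on the knockout arrays (difference 0.83, SE 0.24, adjusted p 0.351).

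Genes of fat use had lower medians. For fatty acid oxidation 15 of 18 measured genes were lower and 3 higher (median -0.24, with -0.25 in the MCU and -0.28 in the MCUb knockout). For fatty acid uptake and PPAR targets 14 of 18 were lower (median -0.21). At an unadjusted p of 0.05 the counts were 4 (22.2%) and 3 (16.7%), all lower, beside 10.7% of all probe sets, of which 5.75% were lower. Plin5, a lipid droplet protein that meets mitochondria, read 7.69, 6.73 and 7.19 on the controls and 6.26 to 6.71 on the knockout arrays (difference -0.75, SE 0.21). Ppargc1b, a coactivator of mitochondrial genes, read 9.46, 9.05 and 9.53 against 8.67 to 9.01 (difference -0.56, SE 0.16). Both were clear of control and even between the lines, and the adjusted p of both was 0.351. The 3 arrays of high Y-linked level were the lowest 3 for Plin5, for the uptake gene Cd36 (-0.48, SE 0.21) and for the oxidation enzyme gene Eci1 (-0.52, SE 0.18). Without those arrays the differences were -0.59, -0.16 and -0.33. With any 1 array left out the 2 list medians lay below 0, as the plot of list medians shows.

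Genes that make and move mitochondrial proteins gave mixed values. In the import list 7 of 18 were higher and 11 lower (median -0.14). Tomm70a, an import receptor of the outer membrane, read 9.86, 9.87 and 9.17 on the controls and 10.19 to 10.58 on the knockout arrays (difference 0.72, SE 0.20, adjusted p 0.351), with 0.74 and 0.70 in the lines. Gfer, a sulfhydryl oxidase of the intermembrane space, gave -1.63 in the MCU and 0.14 in the MCUb knockout. Of 77 genes of the mitochondrial ribosome 54 were lower (median -0.12). Mrpl1 read 8.91, 8.77 and 8.65 against 9.13 to 9.67, while Mrps21 read 12.65, 12.83 and 13.33 against 12.06 to 12.57. These 2 subunits of 1 ribosome thus stood on opposite sides of control. Mfn2, which fuses outer membranes, read 12.92, 12.92 and 12.90 against 13.08 to 13.38 (difference 0.32, SE 0.14).

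Of 66 genes of the cytosolic ribosome 44 were lower and 22 higher (median -0.15), and 6 were clear of control, all lower (9.09%, beside 2.23% of all probe sets). That list was edited after values were seen, when Rplp0 and a few others were added to it. Rplp0, a stalk protein of the large subunit, read 10.55, 9.99 and 10.73 on the controls, 9.39, 9.49 and 9.10 in the MCU knockout and 9.54, 9.51 and 9.78 in the MCUb knockout. Its pooled difference was -0.96 (SE 0.19, adjusted p 0.185). Rps28 read 12.88, 12.34 and 13.34 against 11.84 to 12.26 (difference -0.80, SE 0.22). The list median was -0.20 without control replicate 2 and -0.09 without control replicate 3.

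No gene of the contractile apparatus passed the threshold. Of 16 fast fibre genes 14 were higher, with a median of 0.13 and 0 counted at an unadjusted p of 0.05. Of 14 slow and IIa genes 7 were higher and 7 lower, and the median (0.04) and mean (-0.45) differed in sign. Members with a wide spread between arrays had the lowest values. Csrp3, a muscle LIM protein at the Z-disc, read 14.98, 13.86 and 13.52 on the controls, 13.08, 10.08 and 11.95 in the MCU knockout and 9.47, 14.07 and 12.36 in the MCUb knockout. The groups overlapped, and its difference was -2.28 (SE 0.88, adjusted p 0.402). Its 3 lowest arrays, and those of the calcium buffer gene Casq2 (-1.47, SE 0.46), were the 3 of high Y-linked level. Without those arrays Csrp3 differed by -0.97 and Casq2 by -0.62, and a fit that took that level as covariate gave -0.85 and -0.71.

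Among 15 stretch-responsive genes 11 were lower (median -0.17, mean -0.53), and 5 were counted at an unadjusted p of 0.05, all lower (33.3%, beside 5.75% of all probe sets). Xirp1 and Flnc were clear of control (13.3%, beside 4.13% of all probe sets). Flnc, an actin crosslinker of the Z-disc, read 10.57, 10.40 and 10.16 on the controls and 9.27 to 10.03 on the knockout arrays (difference -0.67, SE 0.19, adjusted p 0.351). Srl, sarcalumenin of the sarcoplasmic reticulum, read 13.90, 13.97 and 13.80 against 14.15 to 14.48 (difference 0.42, SE 0.14). The calcium handling list as a whole had 13 of 26 members on each side and a median of 0.02.

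For several clock genes the pooled value lay between opposite values of the lines. The 8 clock repressors had a pooled median of 0.04, but -0.57 in the MCU and 0.65 in the MCUb knockout. Ciart read 7.30, 6.87 and 7.42 on the controls, 6.50, 5.57 and 6.09 in the MCU knockout and 8.29, 8.25 and 8.71 in the MCUb knockout. Its pooled difference of 0.04 thus lay between -1.14 and 1.22. Per2 (pooled -0.02, lines -0.90 and 0.85) and Cry2 (pooled -0.17, lines -0.82 and 0.48) had the same order, and these 3 of the 8 passed the direct test between the lines. All 6 clock activators and nuclear receptors were lower in the pooled comparison (median -0.37), through differences from -0.01 for Rora to -1.38 for Nr1d1. Npas2, among the 6, was not above background on any array. The sign for Rora turned under quantile normalization, to 0.03. The median was -0.21 without control replicate 3.

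In the list of the TWEAK receptor and NF-kB genes 8 of 16 were lower, the median was 0.00 and the mean -0.26. Only 7 of the 16 were above background on any array. Tnfrsf12a and Nfkbiz were the members clear of control (12.5%, beside 4.13% of all probe sets). Of 27 immediate early genes Klf4 (0.63, SE 0.18, not above background on any array) and Nr4a1 were clear of control (7.41%, beside the same 4.13%). Nr4a1 read 11.11, 11.19 and 10.46 on the controls and 11.21 to 11.96 on the knockout arrays (difference 0.64, SE 0.22, adjusted p 0.384). In the list of the integrated stress response Ddit3, the factor CHOP, read 11.84, 11.54 and 11.74 against 10.69 to 11.52 (difference -0.61, SE 0.19), with its lowest values on the 3 arrays of high Y-linked level, without which the difference was -0.33. The redox defence list had 0 of 20 members at an unadjusted p of 0.05, and the median of the atrophy list was 0.01.

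Markers of other cell types overlapped between the groups in their mean levels. Mean levels of the fibroblast list ran from 8.44 to 8.86 on the controls and 8.20 to 9.21 on the knockout arrays, and those of the endothelial and pericyte list from 8.48 to 9.27 and 8.42 to 8.98. Endothelial genes had a median of -0.13, with Rgs5, a pericyte gene, at 12.82, 12.48 and 12.49 on the controls against 11.43 to 12.34 (difference -0.57, SE 0.17, adjusted p 0.361). The satellite cell genes Pax7 and Myf5 were not above background on any array. Adipocyte markers had 7 of 9 members lower (median -0.12), but 0.44 for the members that passed a filter on dim probe sets. Of the 2 blood genes measured, Alas2 read 8.76, 8.33 and 8.14 on the controls and 7.54 to 8.18 on the knockout arrays (difference -0.68, SE 0.19), and Slc4a1 read 7.66, 6.80 and 6.30 against 6.93 to 7.53 (difference 0.23, SE 0.27; -0.04 with array weights). The part of other cell types in the differences above was not tested.

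**Figure D5:**
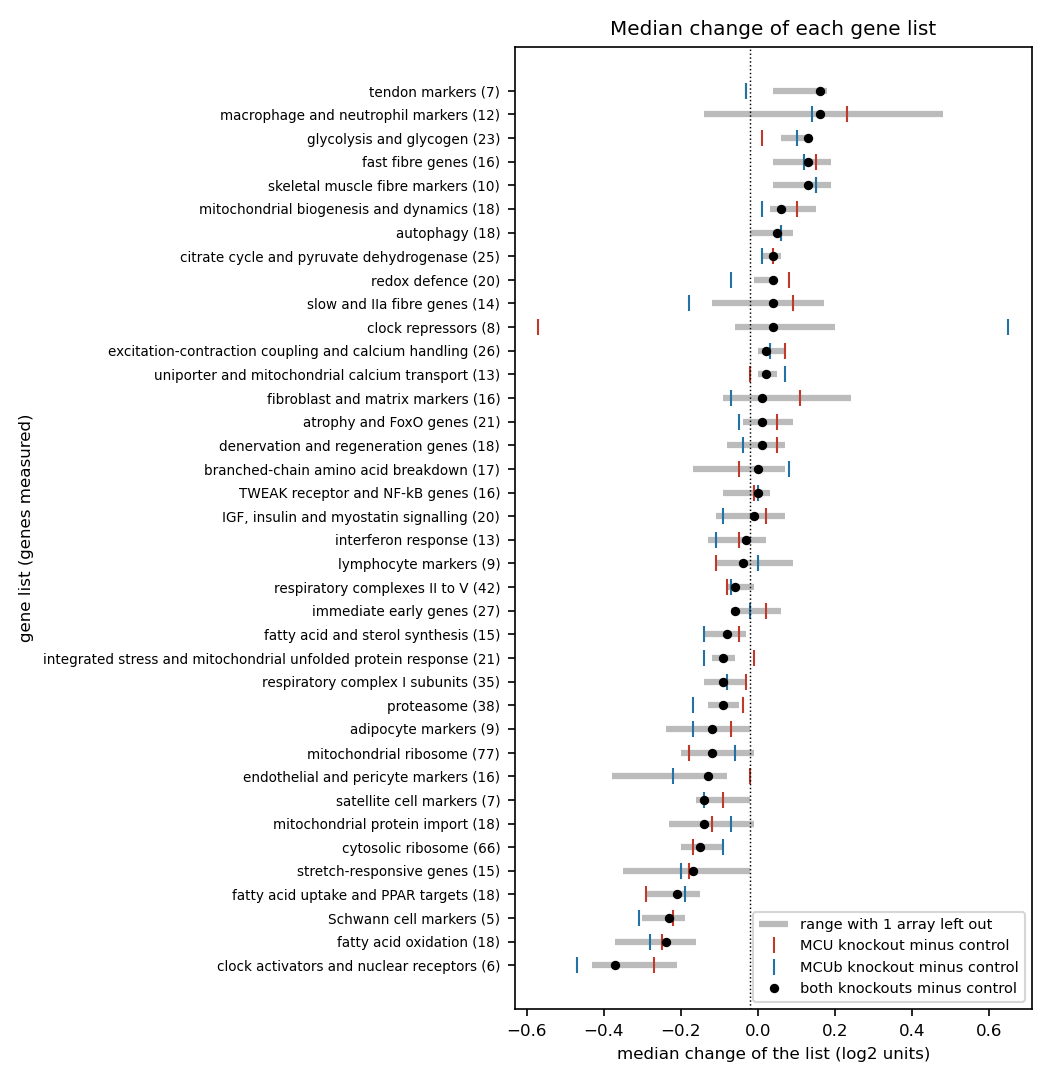
Median log2 difference from control of each gene list (x axis), with the number of genes measured in brackets (y axis); black points are both knockouts pooled, red and blue ticks the MCU and MCUb knockout, grey bars the range of the pooled median when 1 array is left out, and the dotted line the median of all probe sets, -0.02. Clock activators (-0.37) and fatty acid oxidation (-0.24) have the lowest pooled medians drawn, and the ticks of the clock repressors, -0.57 and 0.65, lie farthest apart.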

How the data were processed

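Total RNA of whole tibialis anterior, extracted with Trizol and labelled with a 3' IVT Pico kit, was hybridised to 9 Clariom S arrays per the labels' protocols. The deposited table holds 1 log2 value per feature and array, which the submitters' processing notes ascribe to the authors' use of Affymetrix Expression Console. Program version, normalization and logarithm base are not given in the sources used here, so the folds rest on reading the values as log2. Of 28846 features per array, 6640 controls were left out. Platform annotation named 19572 of the 22206 probe sets left, all matched to RefSeq (GRCm38.p6) by gene identifier, and 2634 stayed unnamed. The brightest probe set of a gene was read. An array's background limit was the 95th percentile of its 23 background sets. A bound of at least N-fold sets the brighter group's mean, at its measured values, against the dimmer group's limit.

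All 9 arrays entered 1 fit of 3 group means (lmFit and eBayes of limma 3.58.1, R 4.3.3; two-sided tests with 6 residual and 5.06 prior degrees of freedom). The pooled contrast is the mean of both knockout groups minus control, and the direct contrast is MCUb minus MCU knockout. The Benjamini-Hochberg adjustment ran over all 22206 probe sets, with a threshold of 0.05. Exact permutation tests used scipy 1.17.1. On simulated data of this design (22206 probe sets) the fit recovered 50 of 100 changes of 1 log2 unit and 96 of 100 of 2 units, with 7 false calls.

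The comparison, the gene lists and the rules were chosen with earlier results of these data known. The naming rule took Mcu, all genes past the threshold, then genes with groups that do not overlap by smallest p up to 20, and 3 members per list with all clock genes. The 2-fold set, 37 genes named from it or beside it, and edits of the cytosolic ribosome list (Rpsa and Rplp0 to Rplp2 added, kinases of S6 removed) were chosen after the values were seen. Alternatives were a dim filter (limit passed on at least 3 arrays), quantile normalization, centring, a trended robust prior, array weights, the replicate number as a block, the Y-linked level as a covariate, the 6 arrays of low Y-linked level alone, a 2-group fit, the mean of probe sets, and leaving out each array. Mcub was not analysed here.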

Additional observations from a re-analysis of the deposited data

Results flagged for a closer look

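Among the 20 genes named first, direct tests between the lines set 3 apart. The MCUb minus MCU knockout difference was -3.56 for Serpina3n (higher in 3 of 3 MCU knockout arrays), 3.91 for Mcu, the gene deleted in 1 of the lines, and -2.05 for Tnfrsf12a (lower in 3 of 3 MCUb knockout arrays). Of the genes named otherwise, those higher in the MCU knockout were Dynlt1b (-2.06), Snx9 (-1.85) and Myorg (-2.29), and those higher in the MCUb knockout were Adh1 (1.55), Gfer (1.77), Gadd45gip1 (1.56), Ciart (2.37), Per2 (1.75) and Cry2 (1.30), with the MCUb minus MCU knockout difference in brackets. Dynlt1b, Snx9, Myorg and Adh1 were chosen after their values were seen. For Proser1 the lowest of the 6 knockout arrays, MCU knockout replicate 3 at 9.74, lay far from the rest: its gap to the nearest was 0.64 of the range of the 6, above Dixon's critical value of 0.625. This was 1 of 20 genes examined so, and chance gives about 1 in 20 groups.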

How the results depend on the processing

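Of the 20 genes named first, none turned its sign under any alternative. For those chosen because their groups do not overlap, fits on fewer arrays cannot turn the sign, so that part is not a result. Of 359 values 312 stayed on their side of the threshold, 29 no longer passed and 18 newly passed. The count of pooled calls, 3, became 6 under centring, 14 with a trended robust prior, 6 with array weights, 1 with the Y-linked level as covariate, and 0 on the 6 arrays of low Y-linked level (1269 at an unadjusted p of 0.05), in the 2-group fit (2409) and with the replicate block (2324). Leaving out 1 array gave 0 to 188 calls (limma; at an unadjusted p of 0.05, 2021 without control replicate 1, 2359 and 2036 without MCU knockout replicates 1 and 2, and 2047 without MCUb knockout replicate 1). Of the 188, which arose without control replicate 2, 46 were clear of all 3 controls and 16 were in the 2-fold set. The count of alike calls, 1, became 3 with the trended prior, 2 with array weights, 0 on the low-level arrays, in the 2-group fit and with the block, and 0 to 158 with 1 array left out. In the fits on fewer arrays the rule for alike was applied only to the arrays kept. The 35 calls between the lines became 61 with array weights and 3 on the low-level arrays, and 13 to 43 with 1 array left out (13, 23 and 19 without MCU knockout replicate 3 and MCUb knockout replicates 2 and 3). The Mcu change in the MCU knockout was -3.80 on the low-level arrays, at an adjusted p of 0.0794. Fewer arrays enter the fits that leave arrays out; otherwise the cause was not tested. The labels do not say that replicate numbers pair the samples, so the block is only an alternative. Correlations of deviations ran from -0.12 to 0.09 for same-numbered and for different-numbered arrays. Of 9 arrays, 3 were nearest to their own number. With 3 arrays per group these values cannot settle whether the samples were paired.

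Signs turned for 10 genes, none called. With the Y-linked covariate and on the low-level arrays the pooled difference was -0.15 and -0.30 for Uty, -0.06 and -0.06 for Eif2s3y, and 0.09 and 0.17 for Per2. With array weights it was -0.04 for Slc4a1, -0.02 for Nfil3, -0.20 for Per3 and 0.06 for Rora. Rora was 0.03 under quantile normalization and 0.11 as the mean of its probe sets. With 1 array left out the differences ran from -0.08 to 0.60 for Slc4a1, from -0.14 to 0.46 for Per1, from -0.35 to 0.07 for Tef, from -0.02 to 0.16 for Eif2s3y, from -0.16 to 0.32 for Nfil3, from -0.13 to 0.16 for Ciart, from -0.42 to 0.30 for Per3, from -0.14 to 0.13 for Per2 and from -0.10 to 0.11 for Rora. Of 492 list medians 5 moved by more than the spread. The NF-kB list went to -0.23 and the adipocyte list to 0.44 with the dim filter, the clock activators to -0.21 without control replicate 3, and the cytosolic ribosome to -0.20 and -0.09 without control replicates 2 and 3.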
